A study of Mus musculus with 4 samples.

Results

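The genes described here encode the proteins of the cytosolic ribosome, 46 of the large subunit and 31 of the small subunit. They were chosen by name from a table of counts for 55536 genes: protein-coding genes whose symbols follow the Rpl or Rps pattern, together with Rpsa, Rplp0, Rplp1 and Rplp2, leaving out the S6 kinases and asking for at least 10 counts in each of the 4 libraries. Of 81 genes that fitted the name pattern, 77 met that minimum. The rule used the abundance of a gene but not its difference between groups. Rpl24 stood nearest to the limit from inside, with 22 and 12 counts in the controls and 21 and 16 in the knockouts, and Rpl36al nearest from outside, with 5 and 14 counts in the controls and 18 and 2 in the knockouts. The other 3 genes left out were Rpl10l and Rpl39l, without a count in any library, and Rpl3l, with 1 count in 1 knockout library.

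The libraries came from bulge cells, the stem cells of the hair follicle, taken from mouse skin on the C57BL/6 background. The 2 knockout libraries were from Cdh5CreERT2; Alk1 flox/flox mice, in which the Cdh5 promoter directs a tamoxifen-dependent Cre to endothelial cells, and the 2 control libraries were from littermates without Cre. Both groups received 100 µg of tamoxifen per g of body weight at postnatal day 17, and tissue was collected 3 days later, at day 20, so the drug is common to both groups and Cre to the knockouts alone. The cells measured are therefore not the cells in which Cre is directed to act, and the labels, which number the libraries of a group 1 and 2, do not say how many animals each one holds.

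Each ribosome joins a small subunit, which reads the mRNA, to a large subunit, which forms the peptide bond, and most of its proteins are present once per ribosome. Many of their mRNAs begin with a run of pyrimidines, the 5′ terminal oligopyrimidine (TOP) tract, through which mTORC1 and LARP1 set their translation and stability together. In the hair follicle, stem cells with low protein synthesis sit in the bulge, and synthesis increases as their progeny enter growth. The genes are also the source of many processed pseudogenes, near-identical copies that can take up reads of the parent.

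Library totals ranged from 16326906 to 29130974 counts, both extremes being controls. Acvrl1, the gene of Alk1, stood at 21.6 and 24.3 CPM (read counts scaled to library size) in the controls and 17.9 and 23.1 CPM in the knockouts. These values overlap, and in bulge cells they do not test deletion in endothelium. The 6 endothelial markers summed to 8.38 and 4.20 CPM in the controls and 3.999 and 14.8 CPM in the knockouts. Cdh5 lay between 0.14 and 1.38 CPM and Cldn5 was at 0 in both controls and 1 knockout, while Tek stood at 2.69 and 2.07 CPM in the controls and 3.17 and 10.6 CPM in the knockouts. The 10 bulge markers summed to between 62804 and 77792 CPM. The p-values below set the difference between groups against the spread between these libraries.

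The start regions of 57 of the 77 genes were found among RefSeq promoters (GRCm38.p6). The windows that follow reach from 50 bases before to 25 bases after the annotated start, 5′ to 3′ on the coding strand, with the longest run of C and T in capitals. They are shown for their pyrimidine runs near the start. A run in the window need not be the TOP tract that begins the mRNA. In Rpl4 and Rps25 the capital run ends before the annotated start. Rpl4 lines the exit tunnel of the large subunit, Rps25 and Rps18 sit in the head of the small subunit, Rps6 is the small subunit protein phosphorylated by S6 kinase, and Rps26 lies where the mRNA leaves the ribosome.
Rpl4, chr9:64173337-64173411, plus strand: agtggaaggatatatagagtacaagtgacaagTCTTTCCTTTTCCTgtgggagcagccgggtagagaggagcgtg
Rps25, chr9:44407664-44407738, plus strand: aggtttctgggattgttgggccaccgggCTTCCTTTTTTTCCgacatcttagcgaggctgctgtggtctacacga
Rps18, chr17:33955641-33955715, minus strand: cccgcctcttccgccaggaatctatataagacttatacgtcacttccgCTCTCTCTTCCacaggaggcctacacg
Rps6, chr4:86857343-86857417, minus strand: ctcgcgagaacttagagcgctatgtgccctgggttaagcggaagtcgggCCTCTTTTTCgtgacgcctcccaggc
Rps26, chr10:128626482-128626556, minus strand: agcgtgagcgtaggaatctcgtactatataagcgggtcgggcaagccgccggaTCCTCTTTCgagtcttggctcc

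A run of at least 7 bases, each C or T, on the coding strand was present in this window in 39 of the 57 genes (68.4%), in 67.6% of large subunit and 69.6% of small subunit genes. The same was true of 41.9% of all 27025 promoters and 38.0% of the promoters of 10446 other tested genes. The letters CGGAAG, the core bound by ETS factors such as GABP, stood on either strand between 250 bases before and 50 bases after the start in 40 of 57 genes (70.2%), against 17.2% of all promoters and 31.1% of those of other tested genes. The core of the YY1 motif, AAGATGGC was on either strand in 4 of 57 genes (7.02%), against 2.88% and 4.60%. On the reverse strand both motifs hold short stretches of C and T, so a match can overlap a pyrimidine run. All 5 windows above, which were shown for their runs, hold such a run. In 4 of these genes both knockouts exceeded both controls, against 71 of all 77 members and 21.3% of all tested genes. Rps26 was the other. Genes with and without the run had median log2 fold changes of 0.33 and 0.32 (knockout over control).

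The ribosomal protein genes took a larger share of the reads in the knockouts. They held 5.76% and 5.72% of all counts in the controls and 7.09% and 6.80% in the knockouts, or 5.74% ± 0.03 (SD, n = 2) against 6.94% ± 0.20 (SD, n = 2). The groups did not overlap, and the exact two-sided permutation test over 4 libraries gave p = 0.333, the smallest that 2 against 2 can give. Large subunit genes accounted for 3.36% and 3.33% of control counts and 4.14% and 3.92% of knockout counts. Small subunit genes accounted for 2.41% and 2.39% of control counts and 2.94% and 2.88% of knockout counts. In a bulk sample, a different mixture of cells and a different amount of RNA per cell cannot be told apart.

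Gene by gene, the difference was small and alike. The median log2 fold change over the 77 genes was 0.33, or 1.258-fold, with an interquartile range from 0.29 to 0.39 and a median SE of 0.12 for a single gene. Of the 77, 73 lay above 0, where 47.5% of all 14259 tested genes did, and the median over all tested genes was -0.02. In 69 of 77 the value fell between 0.2 and 0.5. Both knockout libraries exceeded both controls in 71 of 77 genes, against 21.3% of all tested genes, and the reverse held for 0 of 77, against 23.6%.

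No single gene passed the adjusted test. edgeR's quasi-likelihood test with Benjamini-Hochberg adjustment called 0 of 77 higher, where 0.00701% of all tested genes were called higher, and 0 lower, where 0% were called. The adjusted p of the members ran from 0.430 to 0.996. At an unadjusted p under 0.05, 48 members were higher (28 large, 20 small), against 4.8% of all tested genes, and 0 were lower, against 5.94%. DESeq2 also called 0 members, with a smallest adjusted p of 0.0839 for Rps14 and 58 under an unadjusted 0.05. It called 0.262% of the genes it adjusted higher and 0.54% lower. limma-voom called 0 as well, with 53 under an unadjusted 0.05. The share of all tested genes under an unadjusted 0.05 was not computed for DESeq2 or limma-voom.

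**Figure D1:**
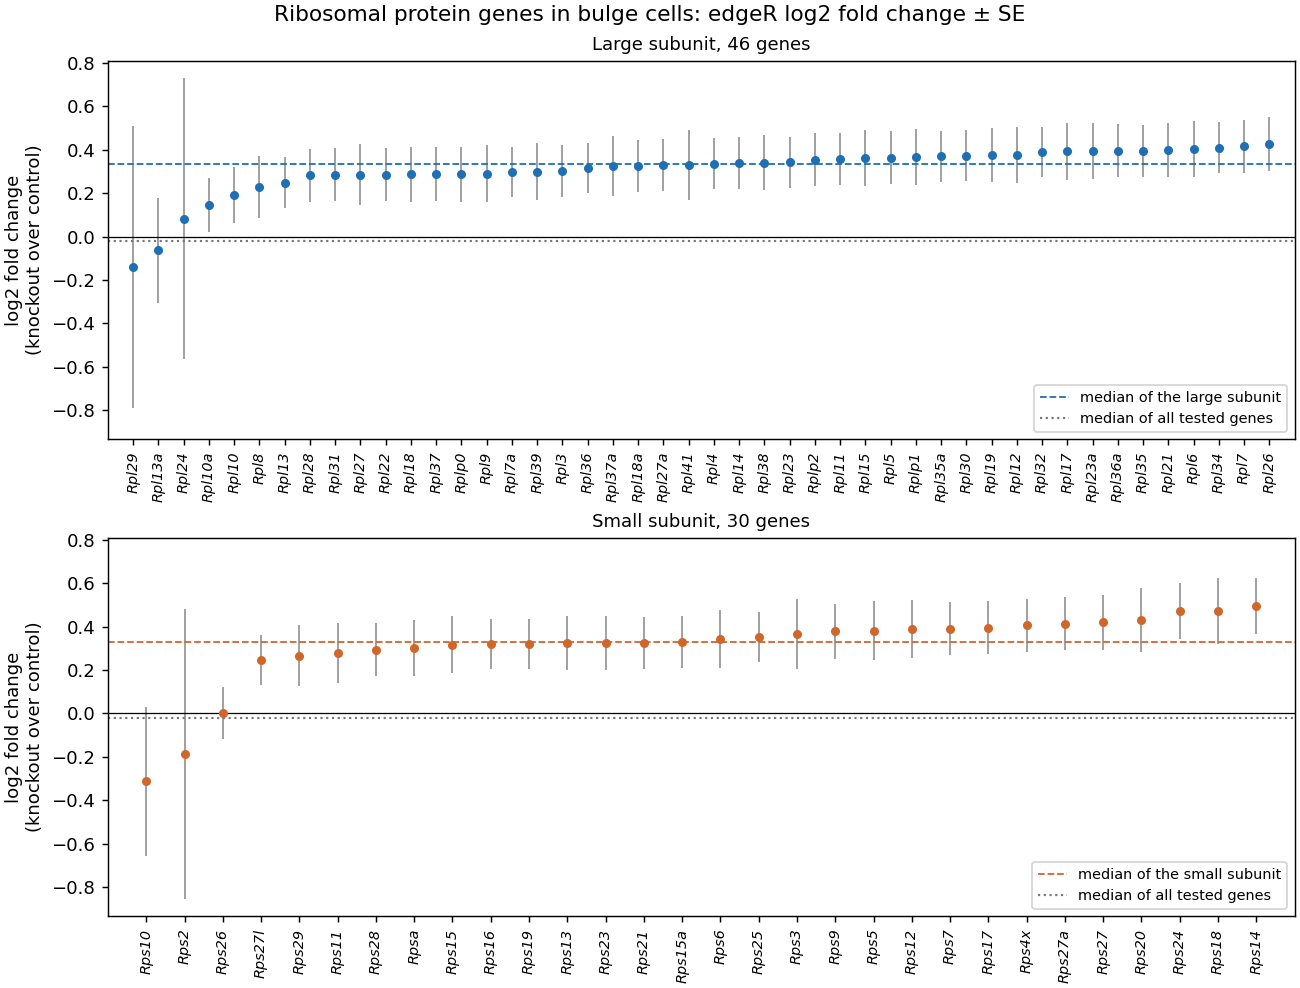
Log2 fold change (knockout over control, edgeR) with its SE for the 46 large and 30 of the 31 small subunit genes, sorted, on a common vertical axis. The dashed line is the subunit's median and the dotted line the median of all tested genes (-0.02). Most points lie between 0.2 and 0.5, with Rpl29, Rpl13a, Rps10 and Rps2 below 0.

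The subunits had nearly equal medians. The median log2 fold change was 0.33 for the large subunit (44 of 46 above 0, range -0.14 to 0.43) and 0.33 for the small subunit (29 of 31 above 0, range -0.31 to 0.49), and the difference between these medians was 0.0028. Summed over genes, large subunit mRNA stood at 32793 and 32844 CPM in the controls and 42378 and 39887 CPM in the knockouts. Small subunit mRNA stood at 23548 and 23609 CPM in the controls and 30133 and 29304 CPM in the knockouts. Each sum was higher in both knockouts than in both controls. The ratio of large to small was 1.393 and 1.391 in the controls and 1.406 and 1.361 in the knockouts. The 2 knockouts lay on either side of the controls, and the ratio did not differ beyond its spread (difference -0.0081, exact two-sided permutation p = 1). The low value of Rps2, a small subunit gene, in knockout 1 raised the ratio there. Rpl29, a large subunit gene also low in knockout 1, lowered it, but by less. Without both genes, a choice made after their values were seen, the ratio was 1.467 and 1.487 in the controls and 1.424 and 1.460 in the knockouts. Both knockouts were then under both controls (difference -0.035, exact two-sided permutation p = 0.333, the smallest possible).

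The pairs of libraries gave similar medians for both subunits. The median over all 77 genes was -0.01 for control 2 over control 1 and -0.12 for knockout 2 over knockout 1, where 63 of 77 genes were lower in knockout 2. The 4 pairs of a knockout and a control, which share libraries, gave medians from 0.27 to 0.40, with 73 to 75 genes above 0. Even the smallest of these exceeded the distance between the 2 knockouts. Large minus small subunit medians lay between -0.02 and 0.02 in all 6 pairs, the within-group pairs included.

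**Figure D2:**
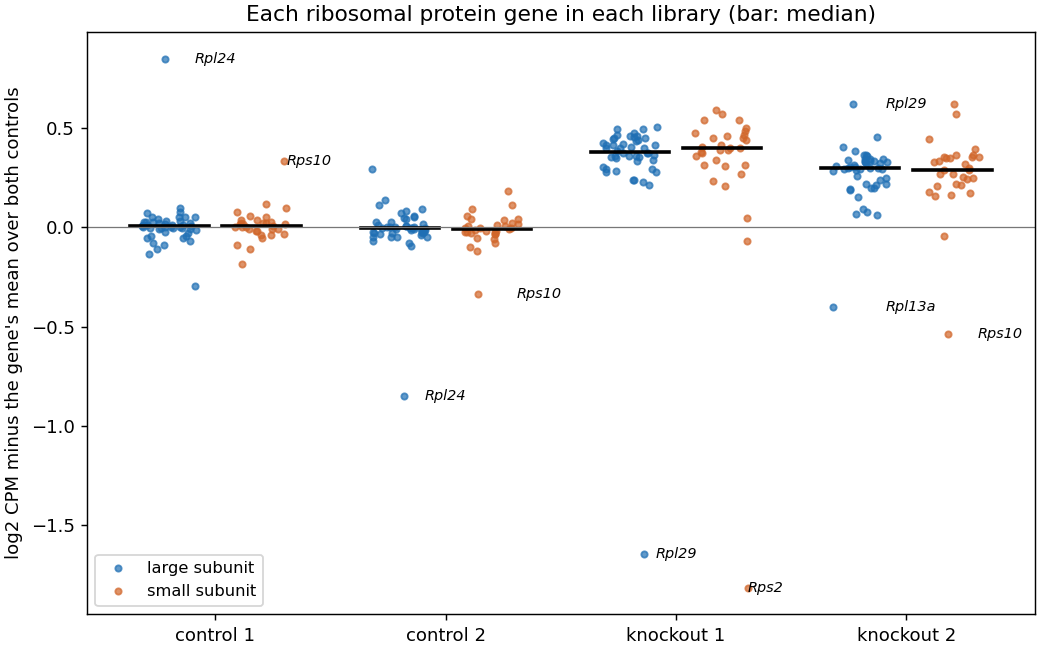
Log2 CPM of each ribosomal protein gene in each of the 4 libraries, relative to the gene's own mean over both controls; the black bar is the median of the subunit. Medians are near 0 in both controls, 0.38 (large) and 0.40 (small) in knockout 1, and 0.30 and 0.29 in knockout 2, with Rps2 and Rpl29 far below the rest in knockout 1.

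Among large subunit genes, those of the stalk and of the 5S particle followed the common pattern. Rplp0, the base of the stalk that recruits elongation factors, stood at 2047 and 1911 CPM in the controls and 2536 and 2297 CPM in the knockouts (log2 fold change 0.29 ± 0.13, SE). Its partner Rplp1 stood at 928 and 842 CPM in the controls and 1194 and 1088 CPM in the knockouts (0.37 ± 0.13). For Rplp2, the other acidic stalk protein, the values were 437 and 419 CPM in the controls and 571 and 524 CPM in the knockouts (0.35 ± 0.12). In all 3 stalk genes both knockouts exceeded both controls. Rpl5 and Rpl11, which bind 5S rRNA and, outside the ribosome, restrain Mdm2, had log2 fold changes of 0.36 ± 0.12 each. Rpl5 stood at 1100 and 1143 CPM in the controls and 1491 and 1393 CPM in the knockouts. Rpl11 stood at 901 and 895 CPM in the controls and 1195 and 1105 CPM in the knockouts. These 2 genes, on different chromosomes, gave nearly the same separation.

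The 5 highest of the large subunit were Rpl26, Rpl7, Rpl34, Rpl6 and Rpl21, between 0.40 and 0.43. Rpl26, also known for binding p53 mRNA, stood at 608 and 611 CPM in the controls and 865 and 772 CPM in the knockouts. Rpl7 stood at 1213 and 1309 CPM in the controls and 1722 and 1642 CPM in the knockouts. Each of these 5 values exceeded the subunit's median by less than 1 SE of a single gene, so the order near the top carries no separation. At the lower end of the genes that separated the groups were Rpl10a (0.15 ± 0.12) and Rpl10 (0.19 ± 0.13), the latter placed close to the peptidyl transferase centre. Rpl10a stood at 742 and 744 CPM in the controls and 868 and 775 CPM in the knockouts. Rpl22, an RNA-binding protein of the large subunit with a close relative, Rpl22l1, stood at 528 and 536 CPM in the controls and 681 and 615 CPM in the knockouts (0.29 ± 0.12).

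Rps14, a platform protein whose human gene is lost in the 5q- syndrome, had the highest log2 fold change of either subunit, 0.49 ± 0.13. It stood at 1963 and 1957 CPM in the controls and 2947 and 2572 CPM in the knockouts. The gap between its groups was larger than the gap between its 2 knockout values. Next came Rps18 and Rps24 at 0.47 (SE 0.15 and 0.13), then Rps20 at 0.43 and Rps27 at 0.42. Rps27, a zinc-binding protein, stood at 376 and 426 CPM in the controls and 528 and 545 CPM in the knockouts. Its near relative Rps27l, which p53 can induce, was less abundant, at 102 and 108 CPM in the controls and 130 and 118 CPM in the knockouts (0.25 ± 0.12). Both relatives had knockouts above controls.

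Rps6, the substrate of S6 kinase, stood at 681 and 680 CPM in the controls and 935 and 792 CPM in the knockouts (0.34 ± 0.13). Rpsa, a late-joining protein also known as the laminin receptor, stood at 1473 and 1443 CPM in the controls and 1909 and 1683 CPM in the knockouts (0.30 ± 0.13). In both genes the control libraries were closer to each other than the knockouts were.

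Although most ribosomal proteins are needed in equal numbers, their mRNA levels per length were not equal. Per kb of the principal transcript, and averaged over 4 libraries, Rps14 was highest at 3953 CPM per kb, ahead of Rps15 at 2268 and Rplp1 at 2029. Rps4x, the X-linked form, reached 1897, Rpl41, which encodes a very short peptide, 1777, and Rpl13 1759. In all, 59 of 77 genes lay between 500 and 2000 CPM per kb. The lowest were Rpl24 at 1.28, Rps10 at 5.78, Rpl13a at 15.7, Rps15a at 82.3, Rps20 at 175, Rps27l at 230 and Rpl15 at 259 CPM per kb. Close copies elsewhere in the genome held 75 to 90.8% of the reads of Rpl24 and its copies. For Rps10 they held 43.5 to 60.6% and for Rpl13a 13.0 to 23.9%. How reads shared with copies were counted is not known, so the values of Rpl24, Rps10 and Rpl13a are uncertain as mRNA levels. The low places of Rps15a and Rps20 rest on annotated transcripts of 5179 and 3706 bases, the longest of the 77, and their CPM without the length were 378 and 598 in control 1. Across the 77 genes the order was nearly the same in both groups (Spearman's rank correlation 0.99 between control and knockout means per kb, across genes that share libraries and lengths). For Rps14 the level per kb was 3283 ± 7.8 (SD, n = 2) in the controls and 4622 ± 444 (SD, n = 2) in the knockouts.

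The length of the principal transcript did not order the ribosomal protein genes. Their principal transcripts ran from 345 to 5179 bases, with a median of 834 bases in the large and 761 in the small subunit, against 2814 over all tested genes. Spearman's rank correlation between log2 fold change and transcript length was 0.01 over the 77 genes, -0.03 within the large subunit (n = 46) and 0.07 within the small (n = 31). With coding length it was -0.08, and with the summed length of all annotated exons 0.17. Within the subunits the value for summed exon length was 0.05 (large) and 0.34 (small). For coding length it was -0.13 (large) and 0.00 (small). The 26 shortest genes (345 to 661 bases) had a median log2 fold change of 0.34, the 25 in the middle 0.30 and the 26 longest (975 to 5179 bases) 0.34. All these points come from the same 4 libraries.

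Over all genes, length did go with the difference. Over 14254 tested genes with a length the rank correlation was -0.29, and medians over genes other than the 77 went by length decile from 0.12 in the shortest decile to -0.24 in the longest. In the shortest decile, up to 1032 bases, 54 ribosomal protein genes had a median of 0.33. In the second decile (1033 to 1534 bases) 13 members had a median of 0.33 against 0.12 for the others, and in the third 6 members had 0.36 against 0.06. Rps20 and Rps15a, at 0.43 and 0.33, lay in deciles where the others had medians of -0.04 and -0.14. The members' median was thus above that of the other genes in each of the 6 deciles that held any. The fourth decile held 2 members, and Rps20 and Rps15a were each the only member in their decile. A smooth trend on GC content and on the summed length of all annotated exons, not principal transcript length, was then taken out of each library. The medians were 0.31 for the large and 0.35 for the small subunit, the median of all genes then being 0.04.

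**Figure D3:**
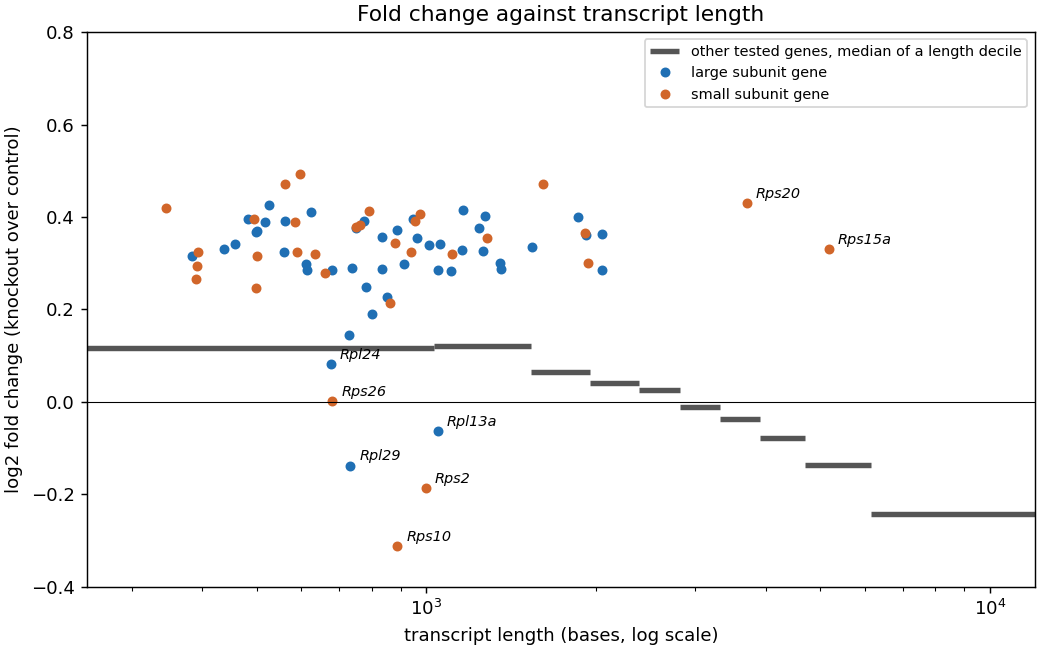
Log2 fold change (knockout over control) against principal transcript length in bases (log scale) for large and small subunit genes, with grey bars for the median of the other tested genes in each length decile; the first and last bars are cut at the axis ends. Member points show no slope, while the grey bars descend from 0.12 to -0.24.

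Of the 77 genes, 6 did not separate the groups, namely Rps2, Rps10, Rps26, Rpl13a, Rpl24 and Rpl29. Rps2, which lies where the mRNA enters, stood at 1312 and 1691 CPM in the controls and 424 and 2213 CPM in the knockouts (log2 fold change -0.19 ± 0.67). Rpl29, a protein also described at the cell surface as a heparin-binding factor, stood at 173 and 260 CPM in the controls and 67.8 and 326 CPM in the knockouts (-0.14 ± 0.65). For both genes knockout 1 was lowest and knockout 2 highest of the 4 libraries. Rps10 held only 7.004 and 4.40 CPM in the controls and 5.29 and 3.83 CPM in the knockouts (-0.31 ± 0.34). Rpl13a held 16.2 and 17.4 CPM in the controls and 19.4 and 12.7 CPM in the knockouts (-0.06 ± 0.24). Rpl24, at most 1.32 CPM in any library, had 0.08 ± 0.65. Rps26 was the exception among these, abundant and even across libraries, at 545 and 519 CPM in the controls and 550 and 516 CPM in the knockouts (0.00 ± 0.12). Without Rps2, Rpl29, Rps10, Rpl13a and Rpl24, a choice made after their values were seen that removes all 4 genes below 0, the median was 0.34 in each subunit.

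These genes have close copies elsewhere in the genome that collected reads. Matching transcripts at 95% identity or more over 80% or more of their length gave 602 copies, of which 591 were annotated as processed pseudogenes and 10 as protein-coding, for 75 of the 77 members. For 53 members the copies held under 1% of the reads of member and copies in every library, and for 7 members 10% or more in some library. Of 20 copies that reached 10 CPM in a library, 14 differed by less than 2-fold between libraries and 6 by at least 10-fold. The sources used here do not give the counting rule for reads that match several places, so members and copies are uncertain where they share sequence.

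The 3 pairs below show how little separates a member from such a copy. Each window holds 90 coding bases, 5′ to 3′, from GENCODE M21 transcripts on GRCm38, with the differing bases in capitals. Substitutions give the member's base, the position counted from 1 at the first base of the member's start codon, and the copy's base.
Rps18 (chr17:33951999-33956001): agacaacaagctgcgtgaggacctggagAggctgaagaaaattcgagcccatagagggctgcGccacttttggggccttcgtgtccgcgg
Gm10260 (chr13:97760072-97760632): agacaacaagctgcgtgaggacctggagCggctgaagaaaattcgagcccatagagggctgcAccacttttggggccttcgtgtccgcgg
Rps24 (chr14:24487125-24496959): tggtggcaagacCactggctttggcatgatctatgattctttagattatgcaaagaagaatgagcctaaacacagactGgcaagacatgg
Rps24-ps3 (chrX:79195047-79195448): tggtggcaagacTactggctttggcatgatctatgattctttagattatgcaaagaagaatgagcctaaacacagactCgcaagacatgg
Rps26 (chr10:128624534-128626747): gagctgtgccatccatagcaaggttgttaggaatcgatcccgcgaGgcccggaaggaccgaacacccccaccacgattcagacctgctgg
Rps26-ps1 (chr8:107439131-107439579): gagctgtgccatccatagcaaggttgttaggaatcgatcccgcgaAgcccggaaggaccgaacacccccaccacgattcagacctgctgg

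Gm10260, annotated as protein-coding, differed from Rps18 at 4 of 456 coding bases, A337C and G371A being in the window. It stood at 52.6 and 84.3 CPM in the controls, 104 CPM in knockout 1 and 0.34 CPM in knockout 2. The library with least Gm10260 was the one with the highest Rps18, 1310 CPM against 1058 CPM in knockout 1 and 898 and 808 CPM in the controls. Rps24-ps3 differed from Rps24, whose human gene is mutated in Diamond-Blackfan anaemia, at 4 of 399 coding bases, with C207T and G273C in the window. It stood at 55.3 and 61.3 CPM in the controls, 1.75 CPM in knockout 1 and 80.8 CPM in knockout 2. Again the library with least of the copy, knockout 1, had the highest parent, 916 CPM against 793 CPM in knockout 2 and 608 and 624 CPM in the controls.

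Rps26-ps1 differed from Rps26 at 2 of 345 coding bases, G270A being in the window. It stood at 1.08 and 1.49 CPM in the controls and 63.0 CPM in each knockout. Both knockouts were above both controls for this copy, whereas its parent did not separate the groups. Rps2-ps10, an Rps2 copy on chromosome 18 with 99.4% identity, stood at 228 and 6.16 CPM in the controls and 805 and 4.89 CPM in the knockouts. Its highest library, knockout 1, was the lowest for Rps2, and copies made up 65.6% of the sum of Rps2 and its copies there. Gm8730, a copy of Rplp0, stood at 63.5 and 2.00 CPM in the controls and 126 and 103 CPM in the knockouts, and Gm15500, a copy of Rpl5, at 37.2 and 40.2 CPM in the controls and 54.9 and 56.4 CPM in the knockouts. In both, as in their parents, the knockouts were above the controls, and the controls of Gm8730 were far apart. Why these copies were uneven was not tested.

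**Figure D4:**
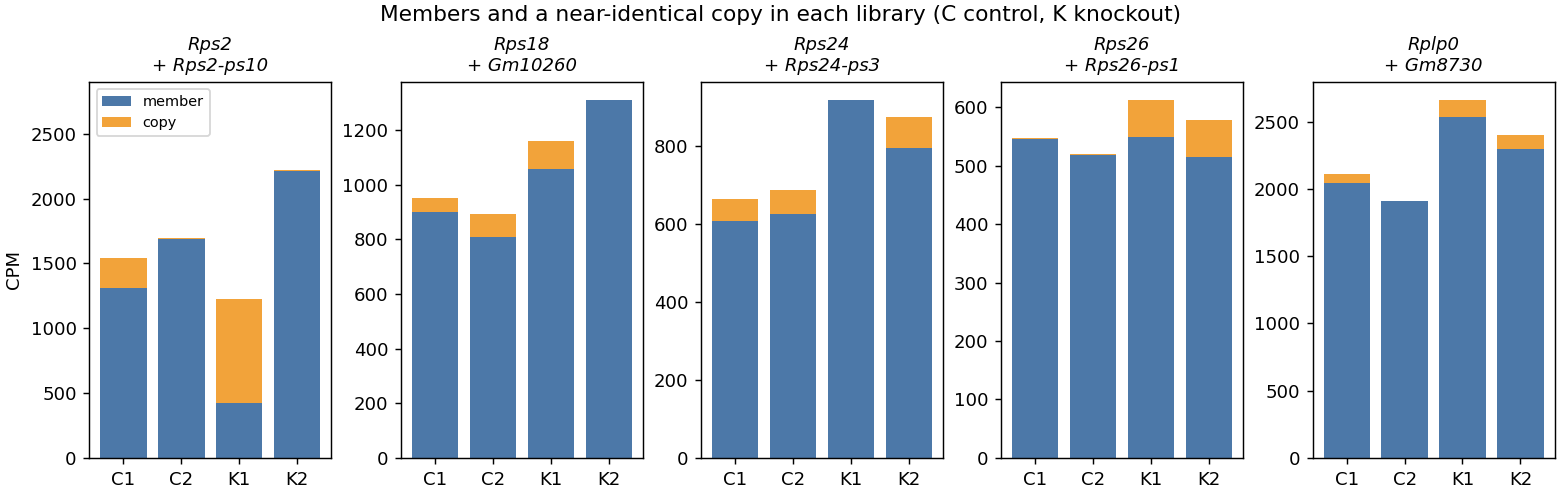
CPM of 5 members (blue) with the CPM of 1 near-identical copy stacked on top (orange) in controls 1 and 2 and knockouts 1 and 2, each panel with its own axis from 0. For Rps26 the copy appears in both knockouts, at 63.0 CPM, and for Rps2 it is largest in knockout 1.

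Adding the counts of all matched copies to their member, an analysis chosen after seeing the data, narrowed the spread. The SD of the log2 fold change over the 77 genes was then 0.093 instead of 0.14, 76 of 77 lay above 0 and 73 separated the groups. Rps26 with its copies had a log2 fold change of 0.16 ± 0.12 in place of 0.00, and Rps2 0.09 ± 0.28 in place of -0.19. The values of Rps18 and Rps24 went from 0.47 to 0.43 ± 0.13 and 0.41 ± 0.12, while Rplp0 went from 0.29 to 0.34 ± 0.13. Rpl29 stayed below 0, at -0.04 ± 0.55. The ratio of large to small subunit mRNA with copies was 1.381 and 1.387 in the controls and 1.372 and 1.363 in the knockouts. These groups did not overlap, at a mean difference of -0.016 (exact two-sided permutation p = 0.333, the smallest possible).

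Ribosomal protein genes that the naming rule leaves out also lay above 0. Fau, whose product carries a small subunit protein, stood at 451 and 439 CPM in the controls and 562 and 563 CPM in the knockouts (0.34 ± 0.12). Rack1, a scaffold on the small subunit, stood at 1098 and 1036 CPM in the controls and 1454 and 1260 CPM in the knockouts (0.35 ± 0.13). Rps3a1, a small subunit protein, stood at 1330 and 1310 CPM in the controls and 1756 and 1497 CPM in the knockouts (0.30 ± 0.13). In 5 of the 6 genes of this list both knockouts exceeded both controls, against 21.3% of all tested genes. The other was Rpl7l1, at 98.8 and 121 CPM in the controls and 137 and 116 CPM in the knockouts (0.21 ± 0.15). Rpl22l1, the relative that can take the place of Rpl22, stood at 73.9 and 69.5 CPM in the controls and 104 and 100 CPM in the knockouts (0.51 ± 0.11). All 6 genes lay above 0 with a median of 0.34, and edgeR and DESeq2 called 0 of them at an adjusted p under 0.05. By edgeR 3 were higher at an unadjusted p under 0.05, against 4.8% of all tested genes.

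Other genes listed for TOP mRNAs also lay mostly above 0, and the TOP status of each listed gene was not checked. Of 26 translation factors and related genes, 26 lay above 0, with a median of 0.30 and values from 0.05 (Eef1g) to 0.60 (Npm1). In 21 of 26 both knockouts exceeded both controls, against 21.3% of all tested genes. Eef1a1, which delivers tRNA, stood at 7416 and 7587 CPM in the controls and 9201 and 9090 CPM in the knockouts (0.29 ± 0.12). Eef2, which moves the ribosome along, stood at 4494 and 4466 CPM in the controls and 5236 and 5734 CPM in the knockouts (0.29 ± 0.12). Tpt1, a classic TOP mRNA encoding a growth-related protein, had 0.54 ± 0.12. It stood at 2283 and 2439 CPM in the controls and 3425 and 3462 CPM in the knockouts. DESeq2 called Tpt1 higher (adjusted p = 0.019) and no other gene of the list, where it called 0.262% of all genes it adjusted. edgeR called 0, with 13 higher at an unadjusted p under 0.05, against 4.8% of all tested genes. Of 7 snoRNA host transcripts listed with TOP starts, 6 lay above 0 with a median of 0.28. Gas5 and Snhg1, the most abundant of these, had 0.23 ± 0.12 and 0.58 ± 0.17.

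The machinery that builds ribosomes was less uniform. Of 33 assembly factors, 27 lay above 0 (median 0.21) and in 18 both knockouts exceeded both controls, against 21.3% of all tested genes. Ncl, a nucleolar protein of rRNA processing, stood at 406 and 423 CPM in the controls and 479 and 630 CPM in the knockouts (0.42 ± 0.16). Eif6, which keeps new large subunits from joining early, stood at 216 and 187 CPM in the controls and 282 and 269 CPM in the knockouts (0.45 ± 0.13). For RNA polymerase I transcription, 14 of 17 lay above 0 (median 0.25), among them Ubtf at 0.47 ± 0.12 and Polr1c at 0.26 ± 0.13, while the largest catalytic subunit, Polr1a, had -0.44 ± 0.20. In 9 of these 17 both knockouts exceeded both controls and in 1 they were under both, against 21.3% and 23.6% of all tested genes. The list of mTORC1 and TOP mRNA control did not share the direction, with 7 of 17 above 0 and a median of -0.05. Within it both knockouts exceeded both controls in 3 genes and were under both in 4, shares near the 21.3% and 23.6% of all tested genes. The kinase Mtor stood at 73.6 and 70.4 CPM in the controls and 56.0 and 52.2 CPM in the knockouts (-0.41 ± 0.12), and its partner Rptor had -0.41 ± 0.13. In the same list Tsc2 had a similar value, -0.41 ± 0.14, while Eif4ebp1 had the highest of the 17, 0.69 ± 0.21. The most abundant genes of that list, Mxd4 and Eif4ebp2, had 0.06 ± 0.13 and 0.00 ± 0.15. In these 3 lists edgeR and DESeq2 each called 0 genes at an adjusted p under 0.05. At an unadjusted p under 0.05 edgeR gave 7, 4 and 2 higher, against 4.8% of all tested genes. Lower at that level were 0, 0 and 3, against 5.94%.

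**Figure D5:**
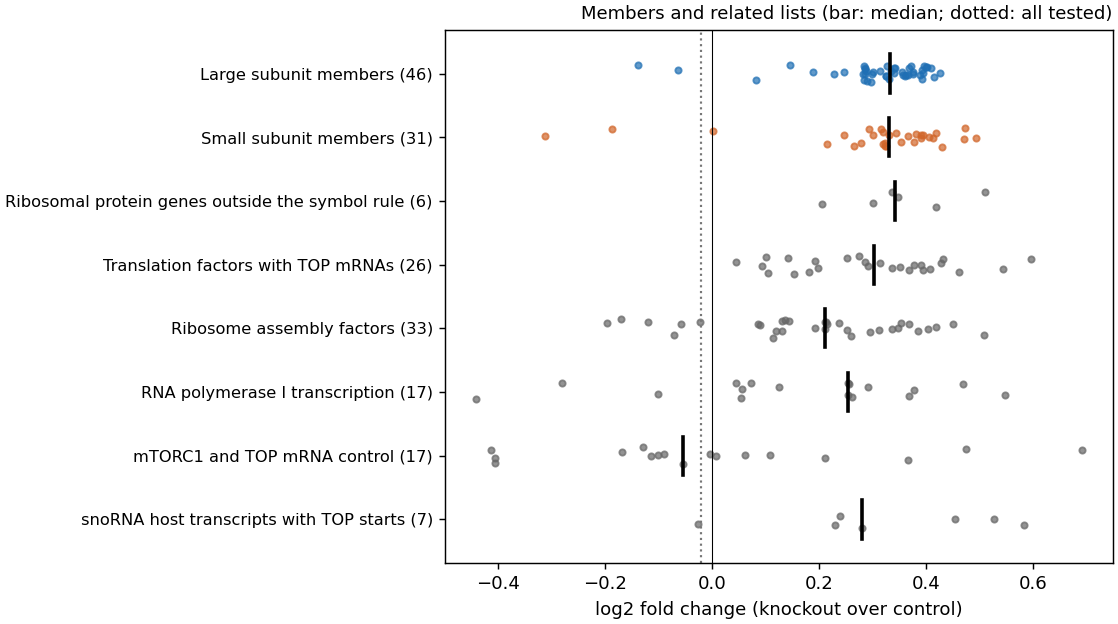
Log2 fold change (knockout over control) of each tested gene of the 2 subunits and of 6 related lists, with the number of genes in brackets; black bars are medians and the dotted line is the median of all tested genes. Medians are 0.33 in both subunits, 0.30 for translation factors listed for TOP mRNAs and -0.05 for mTORC1 and TOP mRNA control.

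Markers of other cells differed between libraries beside these values. The 6 interfollicular differentiation markers summed to 11780 and 3998 CPM in the controls and 7757 and 3494 CPM in the knockouts, with 6 of 6 log2 fold changes below 0 (median -0.55). The high libraries were control 1 and knockout 1. What part this sum had in the ribosomal protein values was not tested. The 6 sebaceous gland markers summed to 690 and 425 CPM in the controls and 431 and 324 CPM in the knockouts, with 6 of 6 below 0 (median -0.67), and DESeq2 but not edgeR called Fasn lower (DESeq2 adjusted p = 0.039). The 6 fibroblast markers summed to 183 and 233 CPM in the controls and 136 and 140 CPM in the knockouts. Of 5 tested fibroblast markers, 2 lay above 0 and 3 below. Col1a1 and Col1a2, which made up most of the sum, had log2 fold changes of -0.69 ± 0.16 and -0.52 ± 0.19. Col3a1 and Dcn, at most 3.26 CPM in any library, had 0.84 ± 0.76 and 1.03 ± 0.66. Lum was at 0 in both controls. Immune markers summed to 18.9 and 14.2 CPM in the controls and 21.8 and 28.1 CPM in the knockouts, with 5 of 6 tested markers above 0. The 4 erythroid markers summed to 4.73 and 6.10 CPM in the controls and 12.7 and 7.81 CPM in the knockouts, with 4 of 4 above 0. The immune and erythroid sums were thus higher, and the fibroblast sum lower, in both knockouts, and their part in the ribosomal protein values was not tested.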

How the data were processed

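The authors deposited raw counts per gene, per the labels, in 1 table with a column for each of the 4 libraries. Libraries were directional and polyA-selected, from 100 ng of total RNA taken up in TRIzol, per the labels' protocols. Trim Galore 0.6.0, cutadapt, FastQC, STAR 2.7.0e, DESeq2 1.26.0 and GRCm38 (mm10) are named in the submitters' processing notes; the sources used here do not give the counter, whether it used strand, or the release of the annotation. All 55536 identifiers matched GENCODE M21, which gave symbols, types and principal transcripts (coding, APPRIS principal and RefSeq-paired first; 76 of 77 members paired).

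The whole table was fitted in R 4.3.3 with edgeR 4.0.16 (filterByExpr, which kept 14259 genes and all 77 members; TMM; robust quasi-likelihood test; Benjamini-Hochberg over all tested genes, threshold 0.05), all 4 libraries and no covariate. CPM are deposited counts scaled to TMM library size; SEs come from the quasi-F statistic. DESeq2 1.42.0, limma-voom (limma 3.58.1) and the other alternatives are in the closing section. The fitting script was tested on simulated data. Copies were matched with blastn 2.17.0. The members and lists were chosen with earlier results of these data known, so lists are described by counts and medians beside all tested genes, without a test. Named genes were set by rule: Rpsa, Rps14, Rps26, stalk, 5S, paralog and S6 members, and per subunit the 5 highest and 5 lowest log2 fold changes and the 3 highest and 3 lowest levels per kb, and from other lists those called or else the 2 most abundant. Copies and some further list genes (Fau, Rpl22l1, Rpl7l1, Eef1a1, Eef2, Eef1g, Npm1, Polr1a, Mtor, Rptor, Tsc2 and Eif4ebp1), and Rpl4 and Rps25, shown for their start regions, were added after their values were seen. For 1 member no individual value is reported here. Depth limits precision chiefly for Rpl24 and Rps10.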

Additional observations from a re-analysis of the deposited data

How the results depend on the processing

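No setting called a member: 0 passed an adjusted p under 0.05 in each of the 16 settings, the main edgeR analysis, DESeq2 and limma-voom among them. Both subunit medians were above 0 in all 16, and 69 to 73 members separated the groups upward. The settings without 1 library are among these, and fewer libraries separate more easily. The share of all genes that separated upward was computed for the main analysis only. Leaving out 1 library at a time gave medians of 0.30 to 0.37 for the large and 0.29 to 0.40 for the small subunit, a difference between them of -0.024 to 0.0094, and a rank correlation with length of -0.071 to 0.013. The extremes above the main medians came without knockout 2 and the lowest correlation without control 1; with 1 library in an arm, that library is assumed to vary like the rest. Removing a trend on summed exon length and GC gave a subunit difference of -0.036 and a correlation of 0.20 with principal transcript length. In the main analysis, union exon and coding length gave correlations of 0.17 and -0.078. The cause was not tested. Without control 1 or control 2, members higher at an unadjusted p under 0.05 numbered 2 and 1, and without knockout 1 or 2 they numbered 36 and 60, against 48; 2 members were lower at that level without knockout 2. With the replicate number as a block the medians were 0.33 and 0.33, 33 members had an unadjusted p under 0.05, and the smallest adjusted p was 0.236; over all genes 25 were called higher and 81 lower, against 1 and 0 without the block. The labels do not say that a number marks a shared litter, and deviations of same-numbered libraries correlated at 0.15 over all tested genes and 0.57 over the members. Over all genes DESeq2 called 33 and 68, and no count filter 163 and 267. The 50-count filter removed Rpl24. Shares of all genes at an unadjusted p under 0.05 were computed for the main edgeR analysis only, so the counts of the other settings have none beside them.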
